A study of Mus musculus with 30 samples.

Results

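The loci of 5 transcription factor genes that define pluripotent stem cells, Pou5f1, Nanog, Sox2, Klf4 and Esrrb, were examined in E14TG2a cells, a mouse embryonic stem cell line kept without feeder cells in serum with LIF. The loci were taken as fixed mm9 windows at named genes, chosen with earlier results of these data known: Pou5f1 at chr17:35635000-35650000, Nanog at chr6:122650000-122670000, Sox2 at chr3:34540000-34560000, Klf4 at chr4:55535000-55550000 and Esrrb at chr12:87695000-87865000. Of 240359 peaks in 20 peak lists from chromatin immunoprecipitation and sequencing (ChIP-seq), 105 overlapped a window by at least 1 bp. The lists cover 6 targets. H3K4me3 is a histone mark of active and poised promoters, and H3K27me3 is the mark laid down by Polycomb repressive complex 2 (PRC2). Suz12 belongs to the PRC2 core and Jarid2 is one of its accessory proteins. EPOP, labelled C17orf96, is a partner of PRC2, and EloB (Elongin B) is part of elongin. For H3K4me3 and Suz12 there were 2 control lists and a single list for each of the knock-downs, of EPOP and of EloB. The EPOP and EloB targets had 2 control lists and 2 from EPOP knock-down cells, and Jarid2 and H3K27me3 had 1 of each. EPOP was depleted with a lentiviral short hairpin RNA under puromycin selection and EloB with a small interfering RNA. The file headers name replicate 1 of H3K4me3 and replicate 2 of Suz12 for a hairpin control and the other list of each for a small interfering RNA control. EPOP replicates differ in antibody lot and EloB replicates in antibody, per the labels. The labels do not say that replicates came from separate cultures, so spread between lists may be technical.

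Oct4 (encoded by Pou5f1), Sox2 and Nanog form the core of the transcriptional network that holds embryonic stem cells in the pluripotent state, and Klf4 and Esrrb are factors of the same network that favour the naive state. Genes transcribed in embryonic stem cells carry H3K4me3 at their promoters, and genes of cell identity tend to carry it over long stretches. Silent developmental genes carry PRC2 and H3K27me3, often together with H3K4me3, a combination called bivalent. PRC2 is found mostly at CpG-rich DNA in these cells.

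The promoter sequences are shown because their CpG content differs between the 5 genes. RefSeq (GRCm38.p6) gave promoters for 5 of 5 genes, and the 250 bases before a transcription start are printed 5′ to 3′, with every CpG in capitals. Their coordinates are those of GRCm38.p6 and cannot be set against the mm9 peaks. Pou5f1, Nanog and Esrrb have 2 annotated starts each.
Sox2, chr3:34649745-34649994, plus strand: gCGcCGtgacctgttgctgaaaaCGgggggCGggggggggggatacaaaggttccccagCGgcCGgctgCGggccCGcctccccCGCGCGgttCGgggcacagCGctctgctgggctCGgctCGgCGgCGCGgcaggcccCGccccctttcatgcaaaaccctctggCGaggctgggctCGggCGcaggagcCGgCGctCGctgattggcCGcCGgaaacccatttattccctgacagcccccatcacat
Klf4, chr4:55532476-55532725, minus strand: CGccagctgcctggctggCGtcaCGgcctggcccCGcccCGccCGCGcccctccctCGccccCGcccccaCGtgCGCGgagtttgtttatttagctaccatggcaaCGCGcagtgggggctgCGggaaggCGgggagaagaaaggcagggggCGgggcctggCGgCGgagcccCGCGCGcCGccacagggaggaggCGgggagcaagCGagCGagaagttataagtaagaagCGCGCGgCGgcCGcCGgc
Pou5f1, first start, chr17:35505782-35506031, plus strand: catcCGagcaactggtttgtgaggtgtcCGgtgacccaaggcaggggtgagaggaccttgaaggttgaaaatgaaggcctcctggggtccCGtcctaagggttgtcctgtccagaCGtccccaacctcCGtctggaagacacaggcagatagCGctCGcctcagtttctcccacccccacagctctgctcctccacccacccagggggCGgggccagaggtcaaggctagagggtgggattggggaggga
Nanog, first start, chr6:122707239-122707488, plus strand: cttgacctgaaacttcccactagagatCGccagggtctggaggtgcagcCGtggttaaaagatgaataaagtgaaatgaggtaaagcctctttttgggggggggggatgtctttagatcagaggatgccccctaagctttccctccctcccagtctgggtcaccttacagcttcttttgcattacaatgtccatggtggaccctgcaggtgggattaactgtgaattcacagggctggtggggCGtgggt
Esrrb, first start, chr12:86360867-86361116, plus strand: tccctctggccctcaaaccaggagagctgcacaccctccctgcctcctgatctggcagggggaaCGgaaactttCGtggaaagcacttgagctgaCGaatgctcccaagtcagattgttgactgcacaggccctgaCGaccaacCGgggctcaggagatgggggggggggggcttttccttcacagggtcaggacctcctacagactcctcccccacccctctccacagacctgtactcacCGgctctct
Esrrb, second start, chr12:86421394-86421643, plus strand: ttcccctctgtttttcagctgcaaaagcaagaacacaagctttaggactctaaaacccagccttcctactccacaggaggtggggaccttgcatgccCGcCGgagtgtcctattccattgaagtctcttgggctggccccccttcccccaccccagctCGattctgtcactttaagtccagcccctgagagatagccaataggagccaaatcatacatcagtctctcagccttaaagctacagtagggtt
The Klf4 promoter held 32 CpGs and the Sox2 promoter 27, more than 95.4% and 91.4% of 32841 RefSeq promoters of the same length, in which the median was 6. The first starts of Pou5f1, Esrrb and Nanog held 8, 6 and 3 CpGs, and the second start of Esrrb held 3. By GC content of at least 50% and an observed over expected CpG ratio of at least 0.6, 31.0% of all promoters were CpG-rich, among them those of Sox2 and Klf4 and none of the other 3 genes. The joint motif for Sox2 and Oct4, searched on both strands as CATTGT, any 1 base and ATGCAAA, was found in 2 of the 32841 promoters. Both belong to Nanog, whose starts lie so close together that they share 1 copy, tttgcattacaatg in the printed strand. The octamer ATGCAAAT, searched on both strands, was found in none of the promoters of the 5 genes and in 1.60% of all promoters. The Nanog copy of the joint motif holds ATGCAAA without the final T of this octamer. The motifs were chosen with the promoter sequences in view, so the rarity of the joint motif is not a test. These are matches of letters and not measured binding, and factor binding was not assayed in these samples.

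The 20 lists held from 108 to 47296 peaks, and read depth is unknown for each of them. The score in the lists is the authors' own and was used only to place a peak within its list. Between 7365 and 9745 peaks of each H3K4me3 list share the score 3100, and only 253 to 301 peaks of a list score higher, so the score does not order the many peaks tied at that value. The library titled EPOP knock-down replicate 1 is described as IgG in another label field, and results that rest on it are given with replicate 2 beside it.

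H3K4me3 was found at all 5 loci in all 4 lists. The long H3K4me3 region of each locus was taken as the widest merged stretch in its window found in both lists without knock-down. Its width was summed over peaks within a list. Among 32277 such H3K4me3 regions of the genome, whose median width was 1645.5 bp, the 5 ranked 1 (Esrrb), 82 (Sox2), 97 (Nanog), 342 (Pou5f1) and 1032 (Klf4) by mean width. All 5 lay among the 1471 regions (4.56%) that were at least 5000 bp wide. Each was picked as the widest of its window, so this share is not a test. A flank region in the Sox2 window, of mean width 5993.5 bp and rank 888, was also wider than the long region of Klf4. The widths of Sox2 and Nanog overlapped between the lists without knock-down, so their order is given with caution. Within each of these lists Sox2 was the wider, with 11245 against 10803 bp in replicate 1 and 12599 against 12095 bp in replicate 2.

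**Figure D1:**
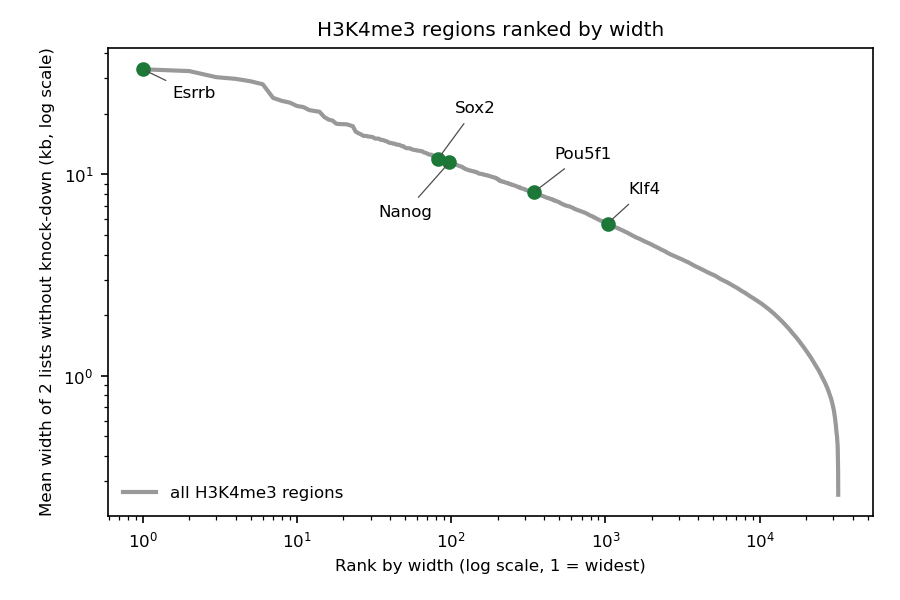
H3K4me3 regions ranked by width, with rank on a log x axis and the mean width of the 2 lists without knock-down in kb on a log y axis; the grey line holds all 32277 regions and the green points the widest region of each locus. Esrrb stands at rank 1, and Klf4, the narrowest of the 5, at rank 1032.

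At Esrrb, which encodes an orphan nuclear receptor, the region at chr12:87806726-87840573 was the widest of all H3K4me3 regions in these lists. It measured 32579 and 33848 bp in the lists without knock-down, 33807 bp upon EPOP knock-down and 36688 bp upon EloB knock-down. The list upon EloB knock-down joined it to a neighbouring stretch, which was a separate peak of 1365 and 1466 bp without knock-down and 1258 bp upon EPOP knock-down. In each of the 4 lists it was the widest single peak, and the second widest peak measured 30128, 30553, 30473 and 31303 bp in the same order. A second stretch, chr12:87841144-87852263, followed after a gap of 558 to 591 bp and ranked 135 among all regions, with 9697 and 11120 bp without knock-down. H3K4me3 covered 28.1 and 31.3% of the Esrrb window without knock-down, 32.1% after depletion of EPOP and 33.0% after depletion of EloB. These stretches were not placed on exons or introns of Esrrb, because no mm9 gene annotation was used here.

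The end of the long Esrrb region towards higher coordinates lay at 87840573, 87840573, 87840576 and 87840575 in the 4 lists, a range of 3 bp. Of 30851 H3K4me3 regions with a peak in all 4 lists, 0.269% had a range that small at this end, and the median was 200 bp. The other end ranged over 4107 bp, at least as much as in 99.4% of regions, with the EloB knock-down list reaching furthest out. Pou5f1 had a similar pair of ends, with a range of 24 bp towards higher coordinates (2.55% of regions had one that small) and 2000 bp at the other end, where the EloB knock-down list again reached furthest. At Klf4 the end towards lower coordinates ranged over 16 bp (2.00% of regions), and a gap of 96 to 122 bp separated it from a small neighbouring peak in every list. The other Klf4 end ranged over 371 bp, and 76.5% of regions had a range no larger. At Nanog the ranges were 244 bp towards lower (60.5%) and 366 bp towards higher coordinates (76.2%). At Sox2 they were 946 bp (93.5%) and 161 bp (38.2%) in the same order. Nanog and Sox2 thus had no end as closely fixed as those of Esrrb, Pou5f1 and Klf4. As at Klf4, the fixed ends of Pou5f1 and Esrrb lay beside a further H3K4me3 peak in every list. The gaps measured 96 to 125 bp at Pou5f1 and 558 to 591 bp at Esrrb, so these ends are not outer limits of H3K4me3.

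At Pou5f1, the gene of Oct4, the long region at chr17:35639313-35647460 measured 8139 and 8136 bp without knock-down, 8153 bp upon EPOP knock-down and 10146 bp upon EloB knock-down. The first 3 values were nearly equal, while the peak upon EloB knock-down took in a stretch at lower coordinates that was called as separate small peaks in replicate 2. A smaller region at chr17:35647573-35648920 was present in all 4 lists, with 1210 and 1335 bp without knock-down. The nearest annotated neighbours of Pou5f1 are the long non-coding RNA Gm32362 and the gene Tcf19 by the order of RefSeq genes. A further H3K4me3 peak of 4369 to 4928 bp began 1002 to 1117 bp beyond the window in all 4 lists.

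Nanog, a homeobox gene, had its long region at chr6:122651423-122663517, with 10803 and 12095 bp without knock-down, 11054 bp upon EPOP knock-down and 12342 bp upon EloB knock-down. It was split into 2 peaks in replicate 1 and upon EPOP knock-down, with 3072 and 7731 bp in replicate 1 and 3002 and 8052 bp upon EPOP knock-down. It was 1 peak in replicate 2 and upon EloB knock-down, of 12095 and 12342 bp. Both split lists are named for the hairpin and both unsplit lists for the small interfering RNA. A second region at chr6:122664403-122667208 measured 2304 and 2806 bp without knock-down, 2214 bp upon EPOP knock-down and 2374 bp upon EloB knock-down.

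Sox2, a single-exon gene for an HMG box factor, lies within the long non-coding RNA gene Sox2ot by RefSeq. Its long region at chr3:34544405-34557003 measured 11245 and 12599 bp without knock-down, 12257 bp upon EPOP knock-down and 12664 bp upon EloB knock-down. Regions on either side reached past the window edges. The one at chr3:34538140-34543263 measured 2932 and 5085 bp without knock-down, and the one at chr3:34559071-34565776 measured 5281 and 6706 bp. All 3 Sox2 regions were narrower in replicate 1 than in replicate 2, as were 84.7% of all H3K4me3 regions. In replicate 1 the last of them was called as 2 peaks, of which one of 3866 bp began 1494 bp beyond the window edge and was not counted in the window.

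Klf4, which encodes a zinc finger factor, had the narrowest long region of the 5, at chr4:55541752-55547514. It measured 5651 and 5750 bp without knock-down, 6008 bp upon EPOP knock-down and 5941 bp upon EloB knock-down. The lists without knock-down were close to each other there, and both knock-down lists were slightly wider. A smaller region at chr4:55540707-55541656 measured 949 and 893 bp without knock-down, 978 bp upon EPOP knock-down and 1242 bp upon EloB knock-down.

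The next comparison asked whether H3K4me3 at these loci followed EPOP or EloB. No locus lost H3K4me3, and no locus differed by 1.5 times or more from the mean of the control lists in summed H3K4me3 width upon either knock-down. Against replicate 1 alone, Sox2 upon EloB knock-down passed that size, at a log2 ratio of 0.67, and against replicate 2 alone its log2 ratio was 0.03. The Sox2 sum of replicate 1 leaves out a flank peak of 3866 bp that began 1494 bp beyond the window edge. With windows widened by 5000 bp, the Sox2 log2 ratio to the mean of the control lists was 0.18 upon EloB knock-down. With the windows as given it was 0.31. Among all H3K4me3 regions, the EPOP knock-down list lacked a peak in 3.86% and the EloB knock-down list in 1.03%. In the same order, 2.57% and 8.7% were at least 1.5 times as wide, and 1.37% and 0.297% at least 1.5 times narrower. A knock-down peak that joined several regions was counted at its full width in each of them. A small Esrrb region, of mean width 1415.5 bp without knock-down, thus counted as 36688 bp upon EloB knock-down. The shares of wider regions include such cases, and how many there were was not counted. With 1 list upon each knock-down there is no test, so each value was set against the 2 lists without knock-down.

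Summed over the window, Pou5f1 held 9349 and 12493 bp of H3K4me3 without knock-down (10921 ± 2223, SD, n = 2), 9543 bp upon EPOP knock-down and 13124 bp upon EloB knock-down. Nanog held 13107 and 14901 bp (14004 ± 1269, SD, n = 2), then 13268 and 14716 bp. Sox2 held 15592 and 24390 bp (19991 ± 6221, SD, n = 2), then 21580 and 24834 bp. At these 3 loci the EPOP knock-down list lay between the lists without knock-down. Klf4 held 6600 and 6643 bp (6621.5 ± 30.4, SD, n = 2), then 6986 and 7183 bp. Esrrb held 47839 and 53213 bp (50526 ± 3800.0, SD, n = 2), then 54526 and 56070 bp. At Klf4 and Esrrb both knock-down lists lay above both lists without knock-down.

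With EPOP depleted, 2 of 5 loci were thus wider than in both lists without knock-down and 0 were narrower than in both. Of all H3K4me3 regions, 33.1% were wider and 20.9% narrower by this rule. The measures differ, since the loci were summed over their windows and these shares are of single regions. The shares also include regions joined by a knock-down peak, which counted in full for each. Among the long regions, those of Pou5f1 (8153 against 8139 and 8136 bp) and Klf4 were wider than in both. That of Esrrb lay between (33807 against 32579 and 33848 bp). The Esrrb window held 10 peaks upon EPOP knock-down, against 6 and 8 without. The median log2 ratio to the mean of the lists without knock-down was 0.077 over the 5 loci and 0.024 over all regions. It was −0.17 when set against replicate 2 alone and 0.082 against replicate 1, the list named for the same method. Against replicate 1 all 5 loci were wider, with log2 ratios of 0.03 (Pou5f1), 0.02 (Nanog), 0.47 (Sox2), 0.08 (Klf4) and 0.19 (Esrrb). The Sox2 value is raised by the flank peak of replicate 1 that lay beyond the window edge. With windows widened by 5000 bp, the Sox2 log2 ratio to the mean of the control lists was 0.046, against 0.11 with the windows as given. Of all H3K4me3 regions, 75.7% were wider than in replicate 1, with a median log2 ratio of 0.11. Against replicate 2, Klf4 and Esrrb were wider and the other 3 loci narrower, so the direction depended on the control list. For the widest region of each locus alone the median was 0.026.

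Upon EloB knock-down, 4 of 5 loci were wider than in both lists without knock-down, all but Nanog, and 0 were narrower. Of all H3K4me3 regions, 62.2% were wider and 7.96% narrower, and 4 of 5 cannot be told from that share. The measures differ, since the loci were summed over their windows and the share is of single regions. The share also includes regions joined by a knock-down peak, which counted in full for each. The long region of every locus was wider than in both lists without knock-down, that of Nanog included (12342 against 10803 and 12095 bp). The median log2 ratio was 0.15 over the 5 loci and 0.14 over all regions. Against replicate 2 alone, the list named for the same method, it was 0.071 over the 5 loci and 0.052 over all regions, and against replicate 1 alone it was 0.23 over the 5 loci. All loci but Nanog were wider than in replicate 2, as were 64.9% of all regions. At Klf4 the log2 ratio was 0.12, and −0.049 when only the higher-scoring peaks were kept. For the widest region of each locus alone the median was 0.108.

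**Figure D2:**
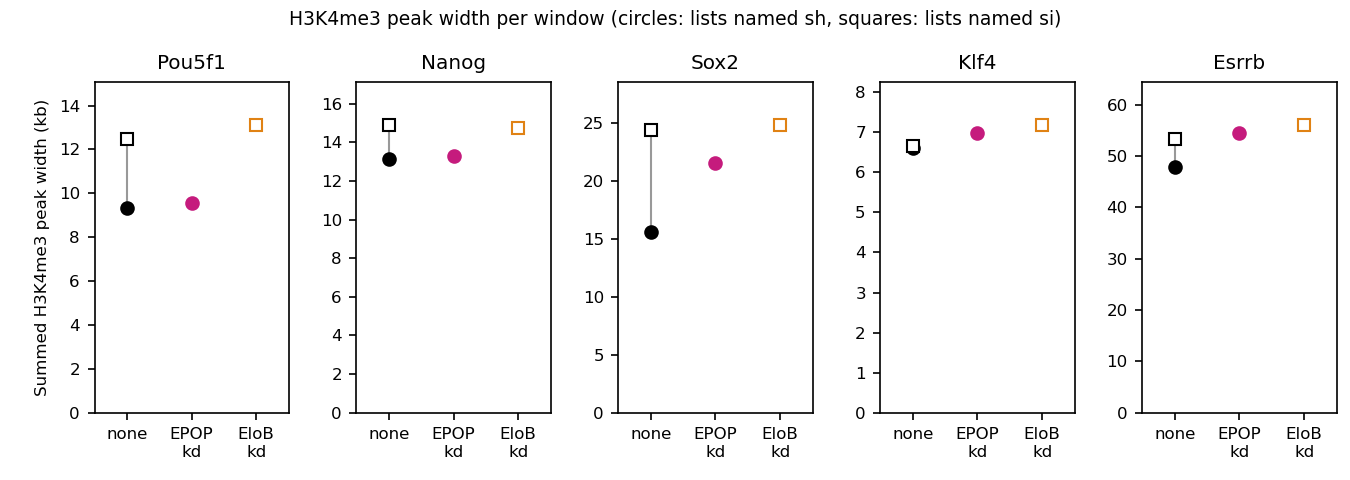
Summed width of H3K4me3 peaks overlapping each window in kb (y axis from 0, with its own range for each locus) by condition, 1 point for each list; circles are lists named for the hairpin and squares lists named for the small interfering RNA, and the grey line joins the 2 lists without knock-down. The EPOP knock-down list lies between the lists without knock-down at Pou5f1, Nanog and Sox2 and above both at Klf4 and Esrrb.

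The lists of the other 5 targets show where EPOP, elongin and PRC2 lay at these loci. Of the 80 pairs of a locus with a list other than H3K4me3, 20 held a peak: 11 at Esrrb, 7 at Sox2, 2 at Klf4 and 0 at Pou5f1 and Nanog. EPOP without knock-down was found at 2 of 5 loci, Sox2 and Esrrb, in each replicate. In windows of 20 kb around all H3K4me3 regions it was found in 41% (replicate 1) and 24.1% (replicate 2). Suz12 without knock-down was found at 3 of 5 loci in replicate 1 and at 2 of 5 in replicate 2, against 26.5 and 28.5% of such windows. EloB without knock-down was found at 0 and 1 of 5 loci, against 5.63 and 6.25% of windows. Jarid2 and H3K27me3 without knock-down were each found at Esrrb alone, against 10.5 and 25.3%. Upon EPOP knock-down EPOP was found at 0 of 5 loci in both lists, against 0.387 and 2.95% of windows, and EloB likewise at 0 of 5, against 0.607 and 0.276%. Suz12 was then found at 2 of 5 loci (31.1% of windows), Jarid2 at 1 of 5 (14.6%) and H3K27me3 at 2 of 5 (22.9%). Upon EloB knock-down Suz12 was found at 3 of 5 loci, against 27.4% of windows. The Esrrb window is much longer than 20 kb, so it had more room for a peak. The long H3K4me3 regions themselves overlapped no peak of the 16 other lists, except that of Klf4, and this held for 63.4% of all H3K4me3 regions and for 64.5% of those at least 5000 bp wide.

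Esrrb held one site with peaks of every target, apart from the long H3K4me3 region. The site, chr12:87761475-87765410, was the Suz12 region found in both lists without knock-down, and it ended 41316 bp before the long region began. In 15 lists a peak was called there, and the 5 without one were both EPOP lists and both EloB lists upon EPOP knock-down and EloB replicate 1 without knock-down. Of 5669 Suz12 regions, 304 (5.36%) had a peak in exactly the same lists. H3K4me3 there measured 2428 and 2772 bp without knock-down, 2520 bp upon EPOP knock-down and 2791 bp upon EloB knock-down, so the site carried both marks of a bivalent region.

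**Figure D3:**
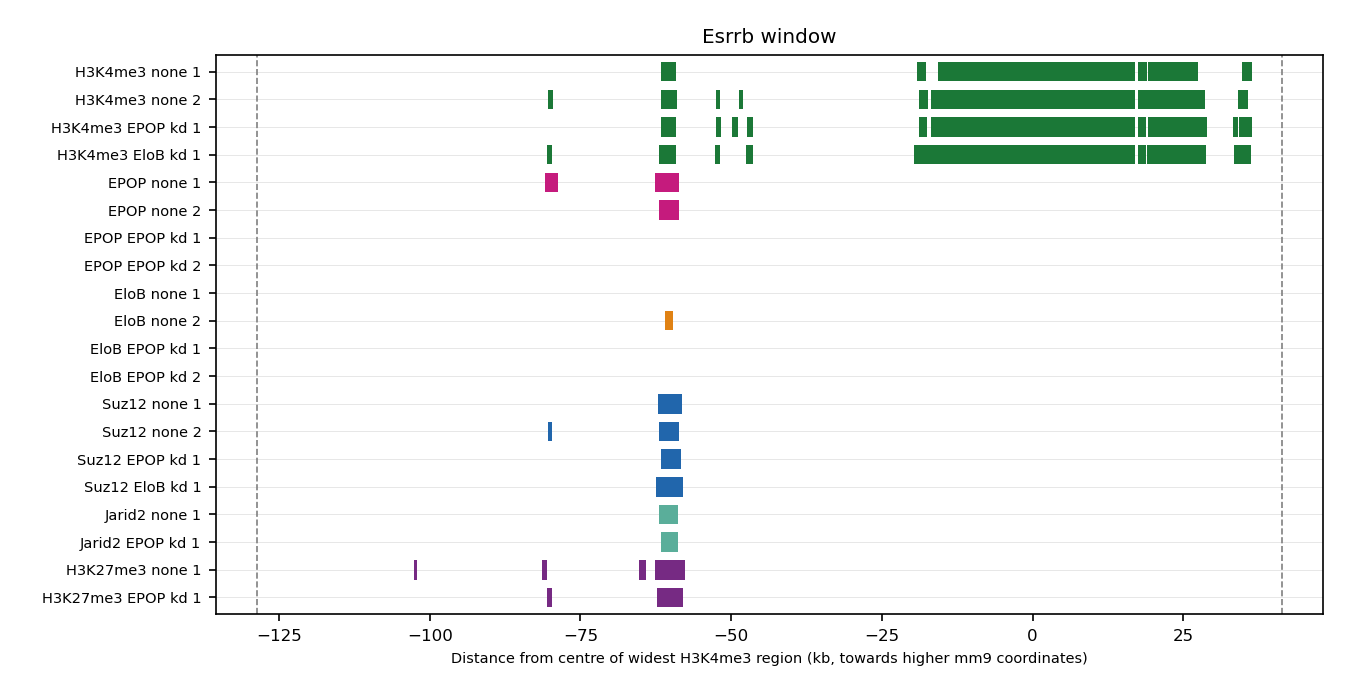
Peaks of the 20 lists in the Esrrb window, 1 row for each list (none: no knock-down; kd: knock-down; the last digit is the replicate), against distance in kb from the centre of the widest H3K4me3 region; dashed lines mark the window. The long H3K4me3 region around 0 holds no peak of another target, and the peaks of PRC2, EPOP and EloB stand at lower coordinates.

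EPOP at the Esrrb site measured 3883 bp in replicate 1 and 3274 bp in replicate 2, with scores above 95.4% and 87.4% of the peaks in their lists. Neither EPOP knock-down list held a peak there, including replicate 2, whose labels do not conflict. Of all EPOP regions called in both control lists, 90.8% had a peak in neither knock-down list. For the summed EPOP width in the Esrrb window, 6128 and 3274 bp against 0 and 0, a two-sided exact permutation test gave p = 0.333, which is the lowest value possible with 2 lists on each side. For Sox2, with 10914 and 2431 bp against 0 and 0, it gave the same p in the same exact permutation test. EloB had a peak of 1438 bp at the site in replicate 2, with a score above 53.6% of its list, and none in replicate 1. Of all EloB peaks of replicate 2, 36% had no counterpart in replicate 1. No EloB peak was called there upon EPOP knock-down, as for 92.7% of the EloB peaks of replicate 2, and the two-sided exact permutation test gave p = 1.

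Suz12 was called at the Esrrb site upon both knock-downs, and of all Suz12 regions 3.1% lacked a peak upon EPOP knock-down and 2.33% after that of EloB. It measured 3936 bp in replicate 1 and 3359 bp in replicate 2 without knock-down, 3281 bp upon EPOP knock-down and 4494 bp upon EloB knock-down. The EPOP knock-down value lay just below both lists without knock-down, as for 22.8% of Suz12 regions, while 15.5% lay above both. Each of these was nearest to the control list named for its own method, replicate 2 for the hairpin and replicate 1 for the small interfering RNA. The EloB knock-down value lay above both, as for 58% of Suz12 regions, while 4.8% lay below both. Jarid2, which helps to recruit PRC2, measured 3017 bp without and 2826 bp upon EPOP knock-down, and 10.5% of Jarid2 regions were narrower upon knock-down and 3.1% had no peak. H3K27me3 measured 4892 bp without and 4301 bp upon EPOP knock-down, and 22.5% of H3K27me3 regions were narrower. Its score lay above 96.8% of the list without and 97.0% of the list with knock-down. Jarid2 and H3K27me3 had 1 list per condition, so these differences have no replicate check.

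**Figure D4:**
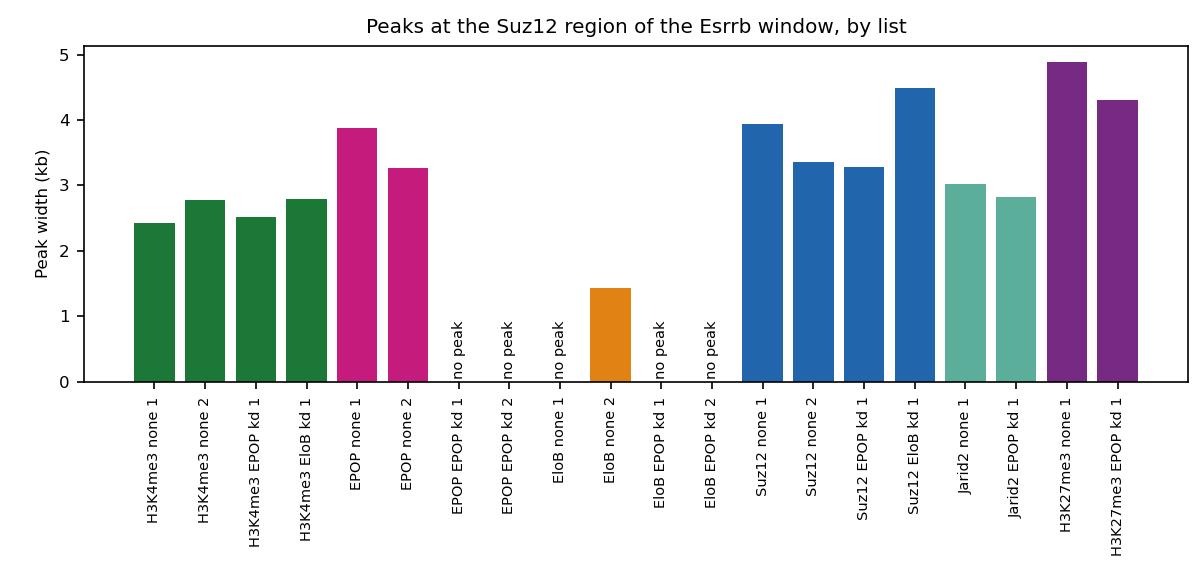
Width in kb of the peak at the Suz12 region of the Esrrb window (y axis from 0) in each of the 20 lists (x axis; none: no knock-down; kd: knock-down; the last digit is the replicate), coloured by target. Both EPOP lists and both EloB lists upon EPOP knock-down have no peak, and neither has EloB replicate 1 without knock-down. The Suz12, Jarid2 and H3K27me3 lists have one in every condition.

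A weaker site lay in the same window, near chr12:87742716-87744960, the EPOP peak of replicate 1, which was 2245 bp wide. Its score exceeded 41.9% of its list, and replicate 2 held no EPOP peak there. H3K27me3 peaks of 920 bp without and 842 bp upon EPOP knock-down, a Suz12 peak of 720 bp in replicate 2 without knock-down, and H3K4me3 peaks of 941 bp in replicate 2 and 790 bp upon EloB knock-down overlapped this stretch. Of the Suz12 peaks of replicate 2, 8.32% had no counterpart in the other Suz12 lists. The Suz12 and H3K27me3 scores here were close to the lowest score of 50 in the lists, at 52.3 for Suz12 and 61.8 and 56.6 for H3K27me3. Within its list the Suz12 score exceeded 2.41% of peaks, and the H3K27me3 scores exceeded 16.3% without and 8.91% upon EPOP knock-down. The H3K4me3 scores in replicate 2 (132) and upon EloB knock-down (114) exceeded 27.8% and 24.3% of their lists. The EPOP score was 102. The control H3K27me3 list held 2 more small peaks in the window, chr12:87721041-87721514 of 474 bp and chr12:87758428-87759438 of 1011 bp, which the EPOP knock-down list lacked. Summed over the Esrrb window, H3K27me3 measured 7297 bp without and 5143 bp upon EPOP knock-down, and this difference of −2154 bp became −591 bp when only higher-scoring peaks were kept.

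Sox2 carried EPOP and Suz12 on its flanks and not on the long H3K4me3 region. At the flank towards lower coordinates EPOP had a peak of 5922 bp in replicate 1 (chr3:34537805-34543726) and 2 smaller peaks of 1043 and 1388 bp in replicate 2. Their scores exceeded 71.3% of the list of replicate 1 and 28.3% and 9.36% of the list of replicate 2. When only higher-scoring peaks were kept, EPOP at Sox2 rested on replicate 1 alone. The peak of replicate 1 ended 679 bp before the long H3K4me3 region. Suz12 was found at this flank in all 4 of its lists, with 2812 and 1718 bp without knock-down, 2342 bp upon EPOP knock-down and 2459 bp upon EloB knock-down, so both knock-down values lay between those without. Their scores exceeded 39.5% and 54.6% of the control lists, 47.5% of the EPOP knock-down list and 46.9% of the EloB knock-down list, so these were middling peaks. H3K4me3 overlapped the same flank in every list. EPOP was absent upon knock-down in both lists, while no EloB or Jarid2 peak overlapped the Sox2 window in any list.

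Within the Sox2 window H3K27me3 was called upon EPOP knock-down and not in the control list. The peak, of 1502 bp at chr3:34539697-34541198, lay on the same flank, with a score of 61.1 that exceeded 13.6% of its list. Without knock-down an H3K27me3 peak of 2808 bp began 970 bp beyond the other end of the window, at chr3:34560970-34563777, with a score of 94.7. With windows widened by 5000 bp the H3K27me3 length at Sox2 was therefore −1306 bp upon knock-down relative to the control list, and with the windows as given 1502 bp higher, so it had no stable direction. Of the H3K27me3 peaks upon knock-down, 26.7% overlapped none without knock-down, and 23% of those without overlapped none with knock-down.

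The other Sox2 flank held an EPOP peak of 4992 bp in replicate 1 (chr3:34559613-34564604), which exceeded 71.6% of its list in score, and none in replicate 2. Of all EPOP peaks of replicate 1, 46.8% had no counterpart in replicate 2. Most of that peak lies outside the window, and the Suz12 peaks there all began beyond it: 2298 and 1899 bp without knock-down and 3823 bp upon EloB knock-down. The Suz12 list upon EPOP knock-down held no peak within 5000 bp of that window edge, while Suz12 on the opposite flank was called in that list. Of all Suz12 regions found in both control lists, 3.1% lacked a peak upon EPOP knock-down. The 2 Suz12 peaks without knock-down were of modest rank, with scores above 24.4% and 38.0% of their lists.

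**Figure D5:**
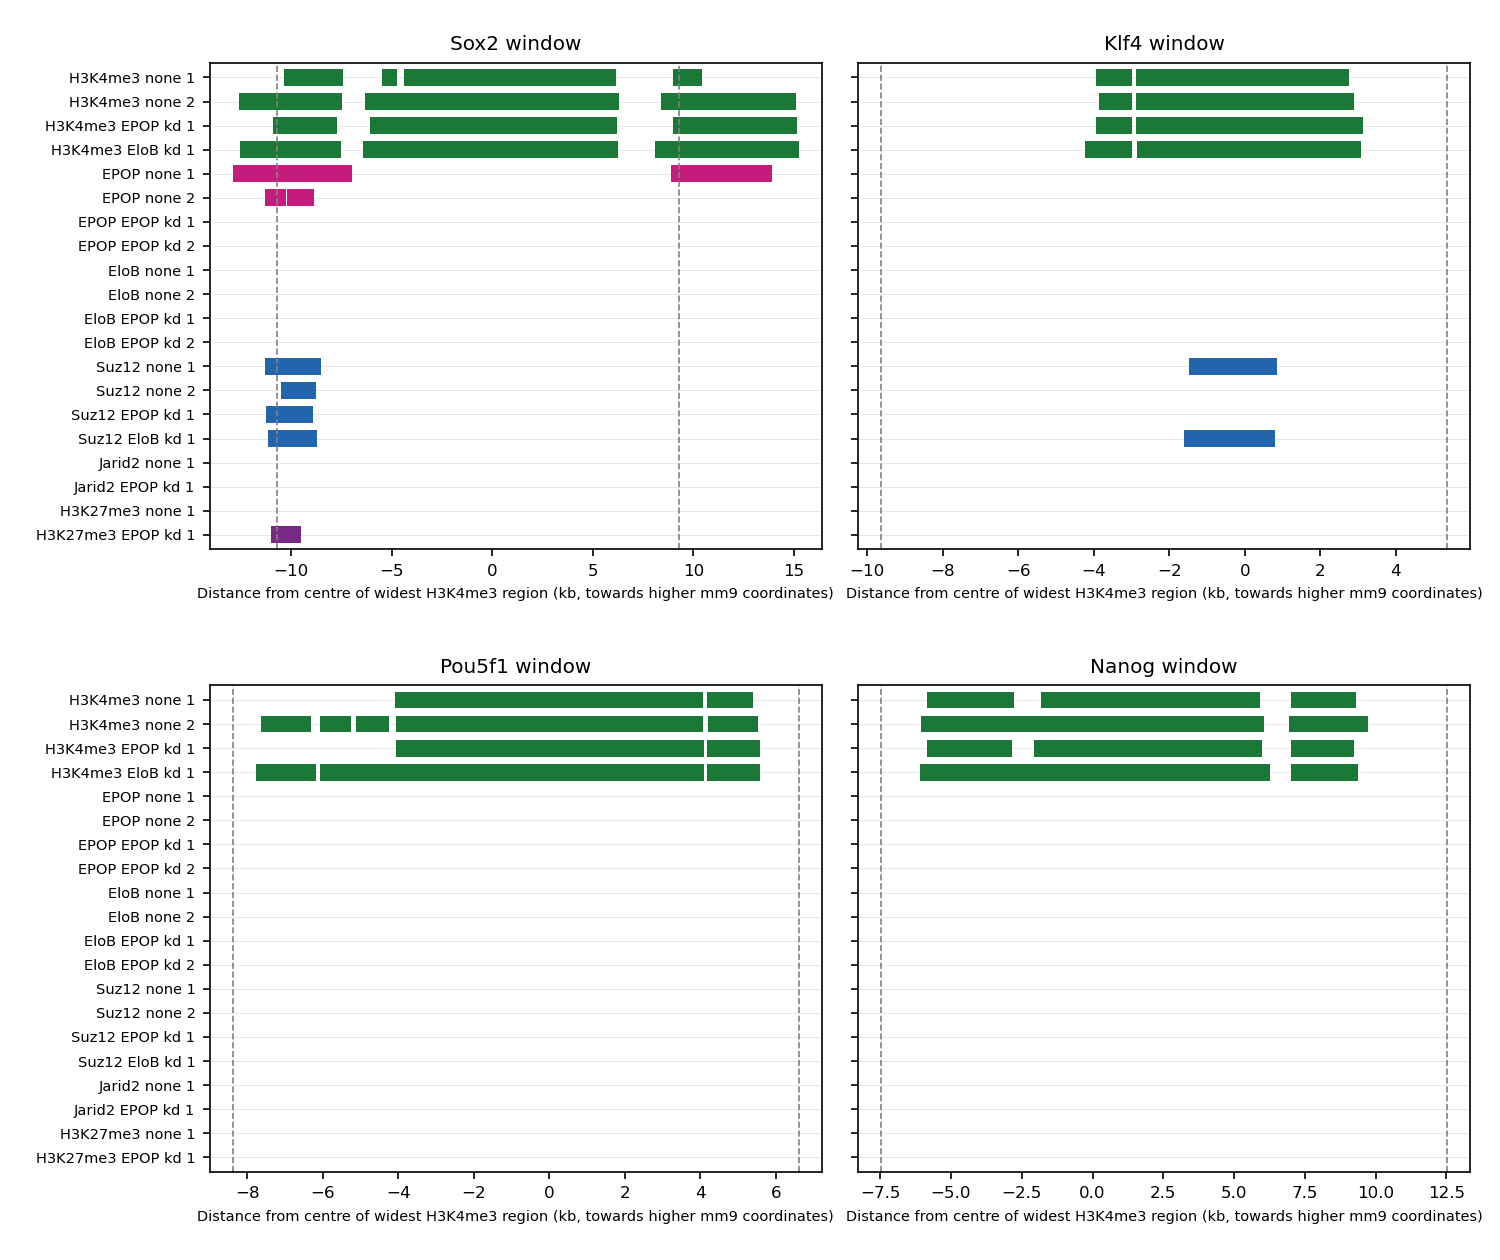
Peaks of the 20 lists that overlap the Sox2, Klf4, Pou5f1 and Nanog windows, 1 row for each list, against distance in kb from the centre of the widest H3K4me3 region of each locus; dashed lines mark the window and peaks wholly outside it are not drawn. Pou5f1 and Nanog hold H3K4me3 alone, Klf4 holds Suz12 in 2 lists within its H3K4me3 region, and Sox2 holds EPOP and Suz12 on its flanks.

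At Klf4, Suz12 was found within the long H3K4me3 region in 2 of 4 lists. The peaks measured 2310 bp in replicate 1 without knock-down (chr4:55543169-55545478) and 2396 bp upon EloB knock-down (chr4:55543035-55545430). Replicate 2 and the EPOP knock-down list held none, and both of these are named for the hairpin in the file headers, while the 2 with a peak are named for the small interfering RNA. Of the Suz12 peaks of replicate 1, 7.08% showed this pattern. The scores were low, above 19.4% and 5.27% of the lists. No EPOP, EloB, Jarid2 or H3K27me3 peak overlapped the Klf4 window. The nearest ones of EPOP, Jarid2 and H3K27me3 without knock-down lay 114838 to 116280 bp from the long region, at a site near chr4:55663535-55665275 where Suz12 of replicate 2 also had its nearest peak.

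Pou5f1 and Nanog held no peak of EPOP, EloB, Suz12, Jarid2 or H3K27me3 in any of the 16 lists. Of the 20 kb windows around all H3K4me3 regions, 51.4% held none either, so this is a common state. The nearest polycomb site to the long Pou5f1 region was at chr17:35605952-35608119, the Suz12 peak of replicate 1, 31194 bp away. EPOP, Suz12, Jarid2 and H3K27me3 without knock-down all had their nearest peak there, at 31194 to 31610 bp. The nearest EPOP peak upon EPOP knock-down was 637825 bp away in replicate 2 and 973856 bp in replicate 1. For Nanog the nearest EPOP peaks without knock-down lay 72149 and 87529 bp away on opposite sides, and the nearest Suz12 peaks 87560 and 72191 bp away.

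Likeness was measured as a peak in exactly the same of the 20 lists. The long regions of Pou5f1, Nanog, Sox2 and Esrrb held H3K4me3 in all 4 lists and nothing else, a pattern shared by 19166 of the 32277 H3K4me3 regions (59.4%). The long region of Klf4, with Suz12 in 2 lists, had a pattern found in 42 regions, itself included (0.130%). The H3K4me3 region on the Sox2 flank towards lower coordinates held a peak in 11 lists, as did 145 regions in the same lists (0.449%). The region on the other Sox2 flank, which reaches past the window, held a peak in 9 lists, a pattern of 10 regions (0.031%). The H3K4me3 region at the polycomb site of Esrrb held one in 15 lists, a pattern of 347 regions (1.08%). No gene is named for these regions, because no mm9 gene annotation was used here.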

How the data were processed

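Peak lists of 20 ChIP samples were used; 9 RNA samples and 1 IgG sample were not analysed here. Each list gives a chromosome, start, end and score per peak, with 1 list per sample. The deposited score, never under 50, was assigned by the authors in a way not stated in the labels. Peaks are named after MACS, a peak caller, in the deposited lists, and the submitters' processing notes name mm9, Bowtie, TopHat and Cufflinks without roles or versions. Read depth is unknown, and whether a peak is called can depend on it.

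A peak counted to a locus if it overlapped the window by at least 1 bp, and its full width was summed. H3K4me3 regions were merged peaks found in both lists without knock-down. In the width shares over all regions of a target, a knock-down peak overlapping several regions counted at its full width in each. All 5 loci were named, and the members and lists were chosen with earlier results of these data known; motifs were chosen with the promoter sequences in view. The alternatives are given in the closing section. Groups and replicate numbers came from the titles. Same-numbered EPOP and EloB lists share an antibody or antibody lot per the labels. Other pluripotency genes were not counted, since no mm9 annotation was used here. Python 3.11.15, NumPy 2.4.6 and Matplotlib 3.10.9 were used. The region code was tested on simulated data for H3K4me3 width: over 10228 regions it found all 100 removed regions, and called 201 where 200 had been widened. The simulated regions were peaks far from any neighbour, with the widest peaks left out. Joined or split peaks, as at these loci, were therefore not tested.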

Additional observations from a re-analysis of the deposited data

How the results depend on the processing

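The number of locus and list pairs with a peak, 40 of 100, ranged from 33 when only higher-scoring peaks were kept (at or above the median score over a target's control lists) to 41 with windows widened by 5000 bp; it was 35 with lists of equal length and 40 with at least 0.5 of a peak inside the window. With the higher-scoring part, Klf4 held no Suz12 peak, and Sox2 kept Suz12 upon EloB knock-down alone, EPOP in replicate 1 alone and no H3K27me3. With lists of equal length, cut to the shortest list of a target, no EPOP or EloB peak was left at any locus, so the difference in EPOP length between conditions, −11373.5 bp over the 5 loci, became 0. It was −5705 to −17042 bp with either list without knock-down left out, and −11373.5 bp with either knock-down list left out. With a replicate block (differences within replicate numbers) it was also −11373.5 bp, and the exact sign-flip test gave p = 0.5 at Sox2 and Esrrb, the smallest that 2 pairs allow; the EloB difference was −719 bp with and without the block. The block changed no call. Summed Suz12 width over the 5 loci differed by −1804.5 bp upon EPOP knock-down (−3435 without control replicate 2 and −174 without replicate 1) and by 1921.5 bp upon EloB knock-down (291 and 3552 bp), so neither size was stable. Pairing by number could not be checked from the values, since all knock-down lists were at 0.

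The median log2 ratio of H3K4me3 width upon EPOP knock-down was −0.17 to 0.082 with either list without knock-down left out, −0.044 with at least 0.5 of a peak inside the window and −0.0067 with width clipped to the window. That of Klf4 upon EloB knock-down turned to −0.049 with the higher-scoring part. The H3K27me3 difference upon EPOP knock-down over the 5 loci, −652 bp (1502 at Sox2 and −2154 at Esrrb), was −591 bp with the higher-scoring part, −178 bp with lists of equal length, −3460 bp with wider windows and −955 bp with clipped width. At Esrrb it was −591 bp with the higher-scoring part and −1680 bp with lists of equal length. At Sox2 it turned from 1502 to −1306 bp with wider windows, which take in a peak beyond the edge. The cause of the other shifts was not tested. The widest region alone was an alternative chosen after seeing the data. Without read counts, no limit of detection can be given for an absent peak.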
